A study of Mus musculus with 2 samples.

Results

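The killer cell lectin-like receptor (KLR) genes were compared in natural intraepithelial lymphocytes (IELs) of the mouse small intestine with and without floxed Rbpj deleted by CD4-Cre. The members were every gene whose array probe resolved, through its RefSeq accession, to a symbol of the Klra to Klrk or Klrg series. The reference table lists 33 such genes, and 27 of them had a probe among the 20887 named genes of the array, with 41 probes in all. The 6 without a matched probe were Klra3, Klra23, Klrc2 and the pseudogenes Klra11-ps, Klra13-ps and Klra14-ps. The cells were small intestinal TCRαβ+ CD8αα+ IELs of C57BL/6 mice 8 to 12 weeks old, males and females pooled, sorted as negative for CD4, CD8β and TCRγδ. The Control genotype is given as Rbpjf/f, and the RFF4 genotype as CD4-Cre Rbpjf/f, so that both groups carry floxed Rbpj and the labels name Cre for RFF4 only. The study's text describes its control mice differently, as Rbpj+/+ with CD4-Cre, and which description holds for the hybridized RNA was not settled here. Cre driven by Cd4 regulatory sequences acts from the CD4+CD8+ thymocyte stage on, in every T cell that passed it and not only in IELs. RNA from several isolations was pooled into 1 sample for each genotype and hybridized to 1 array each, so 2 arrays were compared. No spread between samples, no standard error and no p-value can be given, and no difference below has a replicate check.

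KLRs are type II membrane proteins with a C-type lectin-like domain, best known from natural killer (NK) cells and also carried by natural IELs and other antigen-experienced T cells. Most are encoded side by side in the natural killer gene complex of mouse chromosome 6. Inhibitory members recruit phosphatases through a cytoplasmic ITIM, whereas activating members lack it and signal through the adaptors DAP12, DAP10 or FcεRIγ, so that a cell integrates both kinds of input when it meets MHC class I, class I-like or C-type lectin-related ligands on its neighbors.

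Levels below are log2 signals after background subtraction by the scanner software, given relative to the 75th percentile of the gene spots of the same array, so that a level of 0 is the 75th percentile. They are compared between arrays for the same probe only. A gene with several probes is read by the one whose mean level is highest. Differences are RFF4 minus Control on the log2 scale. The technical SD of such a difference was 0.16, from probes spotted repeatedly on each array, and it covers spot-to-spot error only. A probe that the scanner software did not mark as well above background on 1 array gives a bound, and a probe so marked on neither gives no difference. A bound holds for the background subtraction of the scanner software, and the difference can be smaller with another background correction. Of gene spots, 57.2% were well above background on the Control array and 49.7% on the RFF4 array, 0 spots were saturated, and the median signal over background was 9.47 and 5.78. Cd8a had levels of 6.24 and 6.18 on the Control and RFF4 arrays, and Cd8b1, whose product the sort excluded, was at -3.52 and, not well above background, at -4.25. Cd4, also excluded by the sort, was well above background on both arrays at 1.67 and 1.80. Heyl and Dtx1, known Notch target genes, differed by -3.80 and -3.63. Rbpj itself was at 1.96 and 2.28, which is not lower with this scaling (0.32), and where its probes lie relative to the floxed exons is not given in the sources used here. The arrays are therefore named by their labels.

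Of the 27 KLR genes, 24 had a difference between the arrays, 21 of them measured on both and 3 of them (Klrc1, Klrc3 and Klri2) as bounds. Klra2, Klra17 and Klrg2 were well above background on neither array. The differences ran from -4.23 for Klri2 to 2.39 for Klrb1f, with a median of -0.44, where the median over the 13513 named genes with a difference was -0.01. There were 16 KLR genes lower on the RFF4 array and 8 higher, and 51.1% of all genes were lower. More than 2-fold lower were 8 of the 24 (Klri2, Klrh1, Klrb1c, Klri1, Klrc3, Klrc1, Klra5 and Klre1), beside 5.05% of all genes. More than 2-fold higher were 5 (Klrb1f, Klrb1b, Klra1, Klrg1 and Klra10), beside 12.3% of all genes. Past 4-fold there were 2 lower, beside 0.585% of all genes, and 2 higher, beside 1.85%. Of the members past 2-fold, Klre1 was the nearest to the limit on the lower side, at -1.0, and Klra10 on the higher side, at 1.27, and the nearest members that did not reach it were Klra6 at -0.61 and Klrk1 at 0.66. The 21 KLR genes measured on both arrays had a median of -0.30, with 13 lower and 8 higher. Over all 12955 named genes measured on both arrays, the median was -0.003, with 6504 lower and 6451 higher. The RFF4 array was dimmer before scaling, and the counts rest on that scaling: when the arrays were scaled on 8 spike-in controls instead, each difference moved by -1.11, and the KLR counts past 2-fold were 16 lower, beside 55.7% of all genes in that setting, and 2 higher, beside 1.46%. In bulk samples such as these, fewer cells carrying a receptor and less of its RNA in each cell cannot be told apart.

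**Figure D1:**
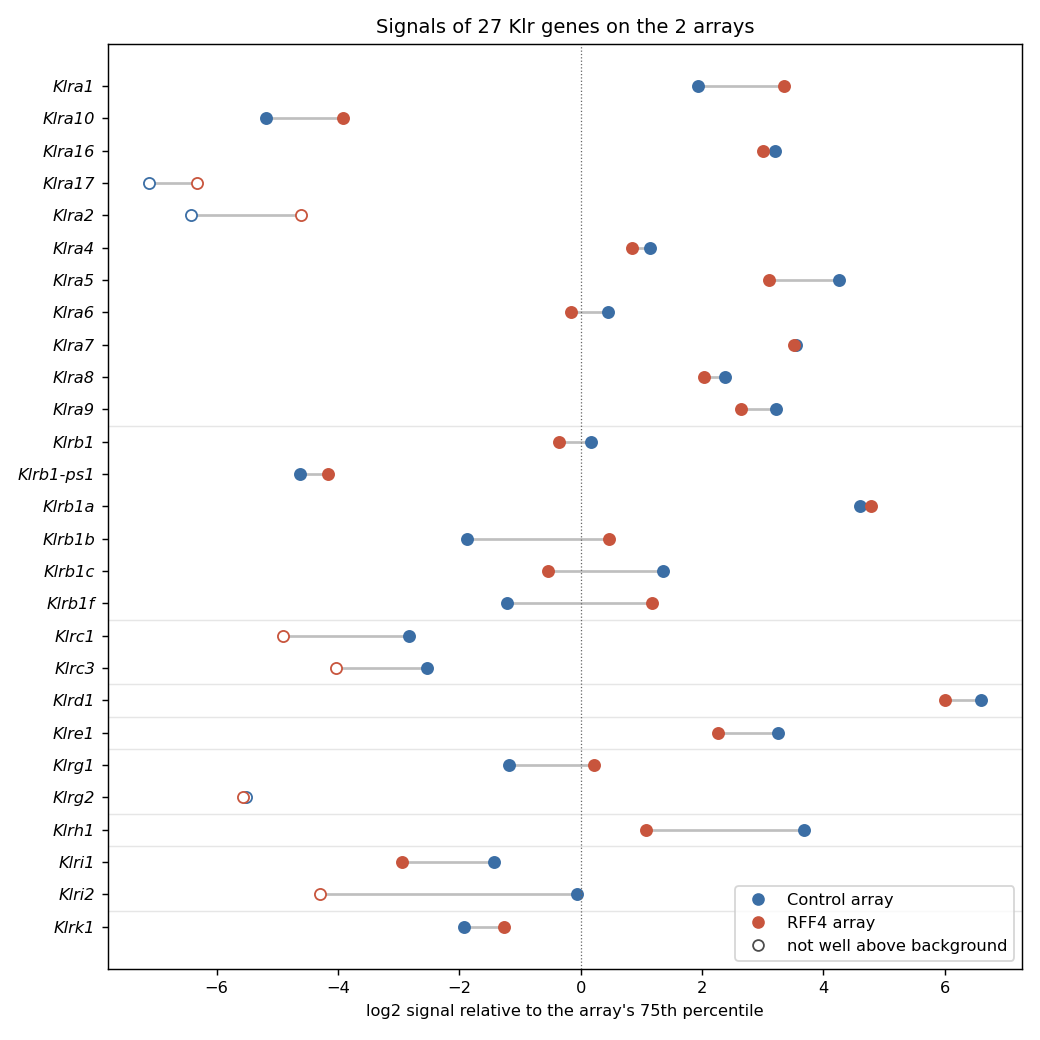
Level of each of the 27 KLR genes on the Control array (blue) and the RFF4 array (red), as log2 signal relative to the 75th percentile of the same array, with open circles for probes not well above background; each row is 1 gene and grey lines separate subfamilies. The RFF4 points of Klrh1, Klri2 and Klrb1c lie well to the left of their own Control points, those of Klrb1b and Klrb1f well to the right of theirs, and Klra7, Klra16 and Klrb1a have points that nearly coincide. Levels are to be read within a row, because probes differ in how brightly they report the same amount of RNA.

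**Figure D2:**
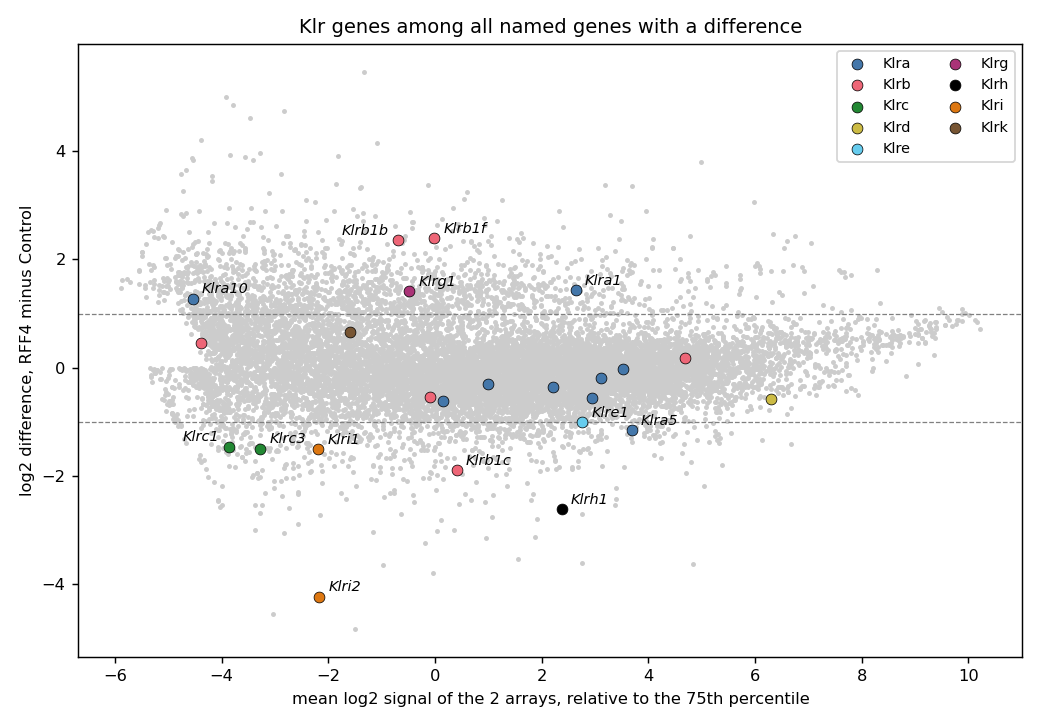
Log2 difference (RFF4 minus Control) of every named gene with a difference (grey) against its mean level over the 2 arrays, with the 24 KLR genes colored by subfamily, bounds drawn at their bound, and dashed lines at 2-fold. Klri2 at -4.23 and Klrh1 at -2.62 lie at the lower edge of the cloud and Klrb1f at 2.39 and Klrb1b at 2.35 in its upper part, whereas most Klra genes lie within the 2-fold lines.

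Promoters of KLR genes are printed here because the study deleted Rbpj, the DNA-binding partner of Notch, and because near-identical members bear on what a probe can separate. The windows are those of RefSeq assembly GRCm38.p6, with 250 bases before and 50 after the annotated start, 5′ to 3′ on the strand of the gene, and such a window was given for 22 of the 27 genes with a probe. Capitals mark the letters TGGGAA (the core bound by RBPJ), TGTGGT (a core of RUNX factors) or GGTGTGA (a T-box core), read on either strand. Klrb1a (chr6:128622885-128623184, minus strand) and Klrb1c (chr6:128788592-128788891, minus strand) are shown because their windows were 78.7% identical while their differences were 0.18 and -1.89.
Klrb1a: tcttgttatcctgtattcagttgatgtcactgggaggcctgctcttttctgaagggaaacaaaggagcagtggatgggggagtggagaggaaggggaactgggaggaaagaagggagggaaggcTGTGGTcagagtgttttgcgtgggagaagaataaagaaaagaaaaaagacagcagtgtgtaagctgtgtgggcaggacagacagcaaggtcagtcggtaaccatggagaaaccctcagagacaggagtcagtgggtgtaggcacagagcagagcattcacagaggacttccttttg
Klrb1c: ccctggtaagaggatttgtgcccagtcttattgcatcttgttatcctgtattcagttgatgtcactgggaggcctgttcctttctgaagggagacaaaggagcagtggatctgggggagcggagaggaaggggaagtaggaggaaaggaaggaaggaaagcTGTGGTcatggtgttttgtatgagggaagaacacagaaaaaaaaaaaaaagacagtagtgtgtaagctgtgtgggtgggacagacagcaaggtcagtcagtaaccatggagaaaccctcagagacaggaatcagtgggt
Both hold 1 TGTGGT, at -126 from the start of Klrb1a and at -89 from that of Klrb1c. Klra4 (chr6:130067222-130067521, minus strand) and Klra8 (chr6:130129849-130130148, minus strand) are the most alike of all pairs compared, at 86.3% identity, and their differences, -0.30 and -0.35, lay within the technical SD of each other.
Klra4: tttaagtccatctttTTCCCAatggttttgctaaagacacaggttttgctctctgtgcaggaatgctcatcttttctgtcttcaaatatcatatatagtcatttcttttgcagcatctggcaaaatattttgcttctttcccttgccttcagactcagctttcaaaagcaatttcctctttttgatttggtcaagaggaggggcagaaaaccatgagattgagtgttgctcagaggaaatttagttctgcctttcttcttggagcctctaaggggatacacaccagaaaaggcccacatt
Klra8: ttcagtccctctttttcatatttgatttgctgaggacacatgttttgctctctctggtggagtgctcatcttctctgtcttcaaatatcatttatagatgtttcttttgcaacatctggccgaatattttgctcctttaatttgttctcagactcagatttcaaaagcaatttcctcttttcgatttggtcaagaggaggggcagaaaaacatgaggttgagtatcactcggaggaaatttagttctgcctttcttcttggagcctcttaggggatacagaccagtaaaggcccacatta
Klre1 (chr6:129577963-129578262, plus strand) is shown as the member with the most marked letters, Klrh1 (chr6:129784221-129784520, minus strand) as the lowest member measured on both arrays, and Klrb1f (chr6:129045651-129045950, plus strand) as the highest.
Klre1: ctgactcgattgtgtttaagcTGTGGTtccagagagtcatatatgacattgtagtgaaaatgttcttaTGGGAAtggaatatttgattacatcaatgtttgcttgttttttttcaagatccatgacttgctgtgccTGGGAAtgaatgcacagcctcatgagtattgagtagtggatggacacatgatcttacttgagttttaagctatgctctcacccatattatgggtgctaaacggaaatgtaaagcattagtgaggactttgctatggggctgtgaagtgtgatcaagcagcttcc
Klrh1: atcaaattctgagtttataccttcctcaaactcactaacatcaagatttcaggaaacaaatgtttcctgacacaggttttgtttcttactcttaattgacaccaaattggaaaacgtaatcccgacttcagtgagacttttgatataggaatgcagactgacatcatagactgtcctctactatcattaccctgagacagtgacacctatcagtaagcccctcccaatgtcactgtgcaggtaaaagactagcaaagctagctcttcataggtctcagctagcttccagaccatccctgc
Klrb1f: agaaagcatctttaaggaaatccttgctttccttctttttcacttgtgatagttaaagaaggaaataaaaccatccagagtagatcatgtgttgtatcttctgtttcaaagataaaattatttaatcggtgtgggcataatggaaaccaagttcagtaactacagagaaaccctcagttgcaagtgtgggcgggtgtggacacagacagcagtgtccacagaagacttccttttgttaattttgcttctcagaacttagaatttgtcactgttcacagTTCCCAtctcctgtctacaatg
The window of Klrh1 holds none of the 3 sets of letters, and that of Klrb1f holds the RBPJ letters, read on the opposite strand, at 28 from its start. Over all 22 genes, TGGGAA on either strand was present for 6 (27.3%; Klra4, Klra7, Klra10, Klrb1f, Klre1 and Klrg2), where 28.3% of all 27025 genes with a window hold it. TGTGGT was present for 7 (31.8%; Klra1, Klrb1a, Klrb1c, Klrc1, Klrc3, Klre1 and Klrk1), against 18.9% of all genes, and GGTGTGA for 1 (Klra1), against 4.60%. As shares of the 32851 windows, since a gene can have several, these letters were present in 25.6%, 16.8% and 3.98%. No marked letters overlapped (0 cases). These are matches of letters in a window and not binding sites. The genes with TGGGAA included Klre1, which fell by 1.0, Klra7, with a difference of -0.02, and Klrb1f, which was higher by 2.39.

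CD94, encoded by Klrd1, pairs with an NKG2 protein to recognize Qa-1, the class I-like product of H2-T23, and the NKG2A chain encoded by Klrc1 makes the pair inhibitory. Klrd1 was at 6.60 on the Control array and 6.01 on the RFF4 array, a difference of -0.59, which is less than 2-fold. No alternative setting gave a smaller fall. Klrd1 was at -0.83 with cyclic loess, -0.93 with pan T cell genes set equal and -0.94 with quantile normalization. It was past 2-fold, at -1.69, after scaling on the spike-in controls. Klrc1 was well above background on the Control array only, at -2.83 against a dim level of -4.91, which gave a bound of 2.76-fold lower (-1.46). Klrc3, which encodes the NKG2E chain, likewise went from -2.53 to a dim -4.02, a bound of 2.82-fold lower (-1.49). Klrd1 was thus well above background on both arrays while its measured NKG2 partners were so on the Control array alone. The other 2 Klrc3 probes were well above background on neither array, and Klrc2, which encodes NKG2C, had no matched probe. With normexp background correction the difference of Klrc1 shrank to -0.11, and Klrc3 gave no difference. NKG2D, encoded by Klrk1, has a separate ligand set, the stress-induced Rae1, H60 and MULT1 proteins. Klrk1 was at -1.92 and -1.26, higher by 0.66 and so less than 2-fold, and its direction turned to -0.45 after scaling on the spike-in controls.

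The products of Klre1, Klri1 and Klri2 belong together, since the Klre1 protein forms heterodimers with either of the Klri proteins. All measured members of this set were lower on the RFF4 array. Klre1 was at 3.26 and 2.26, a fall of 1.0 or 2.0-fold, and it lay just under 2-fold, at -0.96, in the setting that moved it most toward 0. Klri1 was at -1.43 and -2.94, a 2.84-fold fall (-1.51), which shrank to -0.50 with normexp. Klri2 was at -0.06 on the Control array and, not well above background, at -4.29 on the RFF4 array, a bound of 18.8-fold lower (-4.23). Its scanner signals were 490 and 11.6, and the value was -1.80 with normexp, so the size of this fall depends on the background correction. Klrh1, a lectin-like receptor gene next to Klri2, had scanner signals of 6569 and 476 and levels of 3.69 and 1.07, a 6.13-fold fall (-2.62). Its other probe went from 0.24 to -2.46, a difference of -2.70, so that both probes of Klrh1 were more than 4-fold lower. Klrh1 stayed between -3.72 and -2.57 in all 11 alternative settings.

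The Klrb genes encode the NKR-P1 receptors, whose ligands are the Clr proteins of the adjacent Clec2 genes. Their 6 members moved in both directions, with 4 higher, 2 lower and a median of 0.32 that turned to -0.02 with pan T cell genes set equal and to -0.78 after scaling on the spike-in controls. Klrb1f, an NKR-P1 receptor for Clr proteins, was at -1.21 and 1.18, 5.25-fold higher (2.39), with scanner signals of 220 on the Control array and 513 on the RFF4 array. Klrb1b, the inhibitory receptor for the Clr-b protein encoded by Clec2d, was at -1.88 and 0.48, 5.11-fold higher (2.35). The 3 probes of Klrb1b were all more than 2-fold higher but differed in size, from 1.13 to 2.35. Klrb1f, and Klrb1b as read by the probe used, stayed more than 2-fold higher in every alternative setting, at 1.28 and 1.25 after scaling on the spike-in controls. The lowest Klrb1b probe differed by about as much as the -1.11 of that scaling, so that in that setting the result for Klrb1b rests on the probe. Klrb1c, the activating receptor known as NK1.1, went the other way, at 1.35 and -0.53, a 3.70-fold fall (-1.89). Its other probe fell by 1.73, from -1.41 to -3.13. Klrb1, at 0.18 and -0.36, was lower by less than 2-fold (-0.54). Klrb1a, another activating member, was nearly level at 4.60 and 4.79 (0.18), and its sign turned with normexp (-0.02), with pan T cell genes set equal (-0.16) and after scaling on the spike-in controls (-0.92). The transcribed pseudogene Klrb1-ps1 was at -4.63 and -4.17, close to the lowest signals well above background on these arrays (-5.51 and -4.29), and its difference of 0.46 turned to -0.64 after scaling on the spike-in controls.

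The Klra genes encode the Ly49 receptors, which recognize classical MHC class I in the mouse. Of 16 genes listed, 11 had a probe and 9 a difference. These had a median of -0.30, with 7 lower and 2 higher, and past 2-fold there were 1 lower and 2 higher. The median was -1.41 after scaling on the spike-in controls. Klra5, which encodes Ly49E, an inhibitory member known from fetal NK cells and intestinal IELs, was at 4.27 and 3.11, a 2.23-fold fall (-1.16). Its other probe, spotted repeatedly, had a level of 3.57 with an SD of 0.028 over 9 spots on the Control array and of 2.28 with an SD of 0.037 over 10 spots on the RFF4 array, a difference of -1.29. These spots do not replicate the genotypes. Klra1, which encodes the inhibitory Ly49A, was at 1.93 and 3.35, 2.69-fold higher (1.43), and rested on 1 probe. Its signal was also higher before scaling, at 1939 and 2317. Klra10 (Ly49J) was at -5.18 and -3.91 (1.27), a 2.41-fold difference between signals near the lowest ones well above background. After scaling on the spike-in controls, Klra1 was at 0.32 and Klra10 at 0.16, no longer past 2-fold, and Klra10 was also below it, at 0.92, with pan T cell genes set equal.

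The remaining 6 Klra genes were within 2-fold, in order from the lowest Klra6 (Ly49F) at -0.61, Klra9 (Ly49I) at -0.57, Klra8 at -0.35, Klra4 at -0.30, Klra16 at -0.19 and Klra7 (Ly49G) at -0.02. Except between Klra9 and Klra8, the gaps between neighbors in this order were no larger than the technical SD. Klra4 and Klra8 encode the activating Ly49D and Ly49H, of which Ly49H is known for recognizing a protein of mouse cytomegalovirus. Klra4 was at 1.14 and 0.84 and Klra8 at 2.38 and 2.03. Klra7, an inhibitory member, was at 3.54 and 3.52, and its 3 probes ran from -0.10 to 0.16. With pan T cell genes set equal Klra7 was at -0.37, and after scaling on the spike-in controls all 6 were more than 2-fold lower, from -1.72 for Klra6 to -1.13 for Klra7. Klra17 (Ly49Q) and Klra2 (Ly49B), members known from myeloid and plasmacytoid dendritic cells rather than NK cells, were not well above background on either array.

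Ly49 genes arose by repeated duplication, and what each Klra probe hybridized to cannot be read from the array values. The probe sequences were not used here. Identity was compared for the first listed window of each gene only, so that further windows, such as those of Klra7 and Klra8, were left out. Among 45 pairs of Klra windows, promoter identity ran from 48.0% to 86.3% with a median of 54.7%, and 4 pairs were over 80% identical, among them Klra5 and Klra6 at 82.0%. Between KLR subfamilies, 175 pairs ran from 45.7% to 58.3%, and no pair (0) was over 80% identical. Promoter identity only stands in for the transcripts, whose sequences were not compared. Klra16 encodes Ly49P, which is known from the Ly49 haplotypes of strains other than C57BL/6, and the reference table places it with Klra23 away from the other Klra genes. Even so, all 3 Klra16 probes were well above background on both arrays, at 3.20 and 3.01 for the probe used, and their differences lay between -0.22 and -0.08. Which transcripts those probes read was not tested, and the same limit holds for Klra3, which had no matched probe and lies between Klra10 and Klra1. Of the 3 Klra8 probes, 2 were lower by 0.35 and 0.28 and the third was well above background on neither array. Where a KLR gene had several measured probes, the gap between their differences was at most 0.27, except for Klrb1b with a gap of 1.23. Over all 3326 named genes with more than 1 measured probe, the median gap was 0.21 and 6.04% had a gap over 1. Agreement between probes of a gene does not separate it from a near-identical copy that both probes read.

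**Figure D3:**
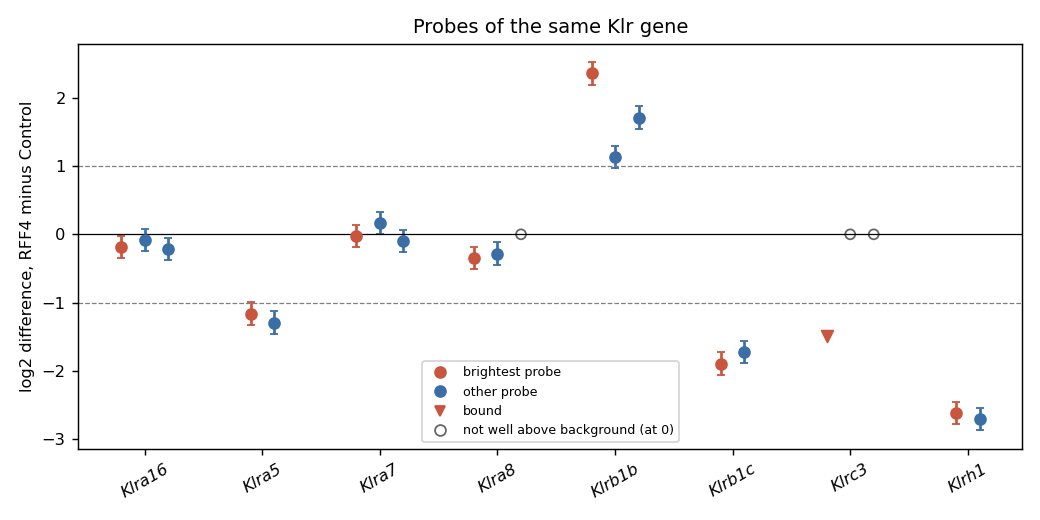
Log2 difference (RFF4 minus Control) of each probe of the KLR genes with several probes of which at least 1 gave a difference, with the probe used for the gene in red and others in blue, error bars of 1 technical SD (0.16), a triangle for a bound and open circles drawn at 0 for probes well above background on neither array. Probes of Klra5, Klra7, Klra16, Klrb1c and Klrh1 lie close together, and those of Klrb1b are spread from 1.13 to 2.35.

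Klrg1, which binds E-cadherin and is known as a marker of antigen-experienced effector T cells, was at -1.18 and 0.22, 2.65-fold higher (1.41), and at 0.30 after scaling on the spike-in controls. Its level before scaling was 224 on the Control array and 264 on the RFF4 array. Klrg2 had levels of -5.52 and -5.57 and was well above background on neither.

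Several of the members that were lower lie side by side. Read along chromosome 6 in the order of the reference table, Klrc3, Klrc1, Klri1, Klri2 and Klrh1 follow each other with only Klrc2, which had no matched probe, between them, and these 5 measured neighbors were all more than 2-fold lower. Klrk1, at 0.66, stands next to Klrc3 on one side of this run, and Klra17, not well above background, next to Klrh1 on the other, followed by Klra5 at -1.16. This run was picked out after its values were seen, 3 of its 5 values are bounds, and with normexp 2 of them, Klri2 and Klrh1, stayed more than 2-fold lower. In the NKR-P1 part, Klrb1c at -1.89 lies directly beside Klrb1b at 2.35, so neighbors also differed in direction.

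**Figure D4:**
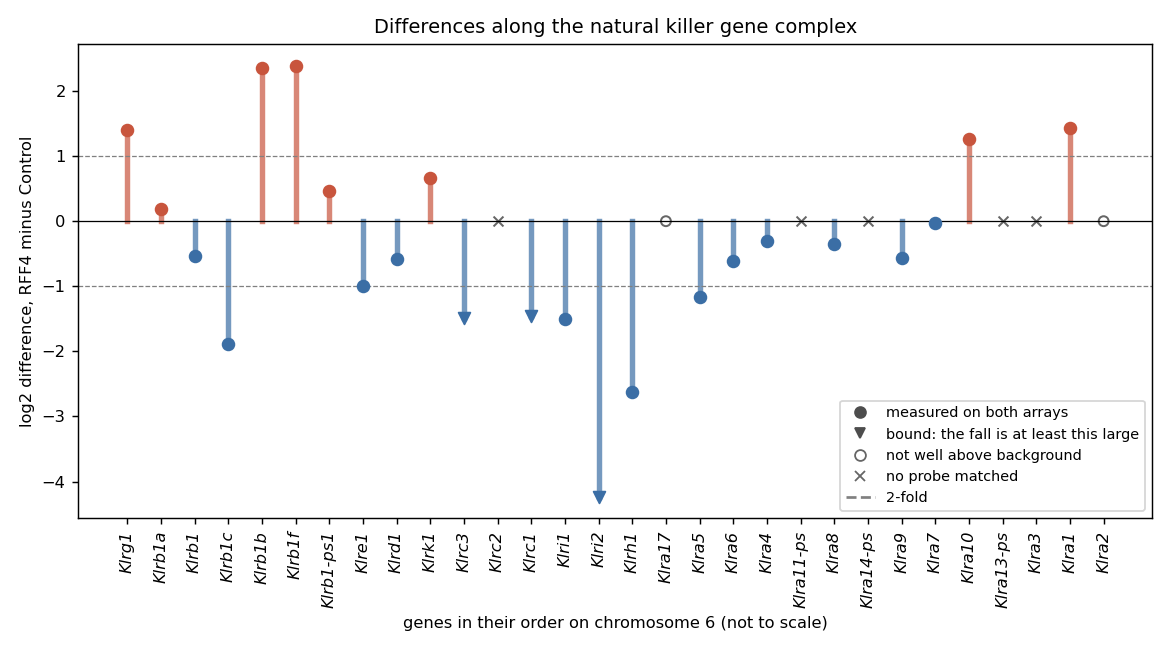
Log2 difference (RFF4 minus Control) of KLR genes in their order along chromosome 6, not to scale and without Klrg2, Klra16 and Klra23, which the reference table lists outside this stretch; circles are measured on both arrays, triangles are bounds, open circles are well above background on neither array, crosses had no matched probe, and dashed lines mark 2-fold. The stretch from Klrc3 to Klrh1 lies below the lower line, and Klrb1b and Klrb1f above the upper one.

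Adaptors, signaling genes and ligand genes of KLRs were each counted whole. The adaptors, which carry the signals of activating members, were all well above background with differences within 2-fold: Tyrobp (DAP12) at 7.72 and 7.50 (-0.22), Fcer1g (FcεRIγ) at 8.04 and 8.41 (0.37) and Hcst (DAP10, the partner of NKG2D) at 6.78 and 7.63 (0.85). Of 18 genes of KLR signaling, 17 had a difference, 11 lower and 6 higher with a median of -0.06, and 1 was past 2-fold. That gene was Syk, a kinase recruited to DAP12 and FcεRIγ, at -2.03 and -0.56, 2.77-fold higher (1.47). Zap70, the related kinase, was level at 7.44 and 7.39 (-0.06). Among the phosphatases that ITIM-bearing receptors recruit, Ptpn6 (SHP-1) was at 0.40, Ptpn11 (SHP-2) at -0.65 and Inpp5d (SHIP-1) at -0.44, all within 2-fold. Fyn and Sh2d1b1 (EAT-2), at -0.93 each, were the lowest of the list without reaching 2-fold.

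Genes of KLR ligands were also read in the same sorted cells, where they need not serve the receptors of these cells. Of 21 listed, 15 had a probe and 12 a difference, 8 higher and 4 lower with a median of 0.45. The class I genes H2-K1, H2-D1 and B2m were at 0.58, 0.39 and 0.62, and H2-T23, which encodes the Qa-1 ligand of CD94 and NKG2 pairs, at 7.97 and 8.49 (0.52), all within 2-fold. Clec2h, a Clr gene of the NKR-P1 part of the complex, was at 1.14 and 2.90, 3.39-fold higher (1.76), whereas Clec2d, the ligand gene of Klrb1b, was at 2.13 and 1.63 (-0.50). H60b, an NKG2D ligand gene, had a bound of 2.91-fold lower (-1.54), from -2.34 to a dim -3.88. The other measured NKG2D ligand genes, Raet1e at -0.34 and Ulbp1 at -0.18, were within 2-fold. Cdh1, which encodes the E-cadherin bound by Klrg1, was at 0.31.

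**Figure D5:**
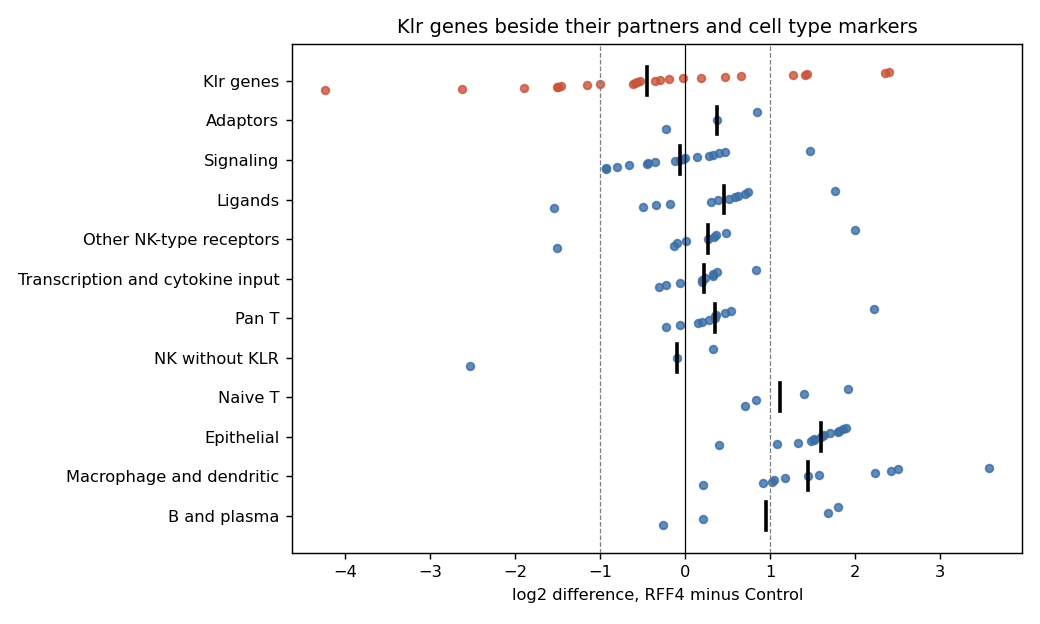
Log2 difference (RFF4 minus Control) of each gene with a difference in the KLR family (red) and in the lists of partner genes and cell type markers (blue), with a black bar at the median of each list and dashed lines at 2-fold. KLR genes spread over the widest range of the lists drawn, from -4.23 to 2.39, and the epithelial and the macrophage and dendritic lists lie entirely above 0 with this scaling.

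Markers of other cell types differed between the pools and are given here as values, and their part in the KLR differences was not tested. Of 6 NK cell markers outside the KLR family, Ncr1, S1pr5 and Cma1 were well above background on neither array, Itga2 was at -0.10 and Eomes at 0.32. Fcgr3, which myeloid cells also express, was at 1.70 and -0.82, a difference of -2.53, in the direction of Klrb1c. The summed signal of these 6 genes was 3.70 times the 75th percentile of a single spot on the Control array and 1.17 times on the RFF4 array. Such sums weight bright probes most, and without Fcgr3 this one was 0.445 and 0.602. The median of the list was -0.10, and it turned to 0.21 with normexp and to 1.42 with neither filter nor bound. Of 8 γδ T cell markers, 4 had a probe and Sox13 alone was well above background, at 0.78, while Blk, Cd163l1 and 5830411N06Rik were not on either array. All 14 epithelial markers were higher on the RFF4 array, 13 of them past 2-fold, with a median of 1.60 and a summed signal of 209 against 666. Of 13 macrophage and dendritic cell markers, 11 had a difference, all higher and 9 past 2-fold, with a median of 1.45 and summed signals of 67.4 and 95.4. Without Itgax and Itgam, at 0.20 and 0.92, the sums were 1.47 and 4.60. The 4 naive T cell markers had a median of 1.12, with Ccr7 at 1.39. Of 8 B cell and plasma cell markers, 4 had a difference, 3 higher and 1 lower with a median of 0.94, and Jchain at 3.90 and 5.58 (1.68) and Ms4a1 at -4.65 and -2.86 (1.79) were more than 2-fold higher, while Cd79a and Pax5 were well above background on neither array. Of 11 pan T cell genes, 9 were higher and 2 lower, with a median of 0.35 and Cd3e at 8.10 and 8.44 (0.35). Past 2-fold there was 1, Cd2 at 2.96 and 5.18, 4.66-fold higher (2.22). Setting the pan T cell genes equal moved the median of the KLR genes from -0.44 to -0.79. After scaling on the spike-in controls, medians that were above 0 turned to -0.76 for the pan T cell, -0.16 for the B cell and plasma cell, -0.33 for the γδ T cell, -0.73 for the adaptor and -0.72 for the ligand list. Quantile normalization also turned the adaptor (-0.23), ligand (-0.06) and pan T cell (-0.03) medians, and cyclic loess the adaptor median (-0.04). The naive T cell, macrophage and dendritic cell and epithelial medians stayed above 0 after scaling on the spike-in controls, at 0.01, 0.21 and 0.49.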

How the data were processed

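RNA of 2 pools was hybridized to Agilent SurePrint mouse arrays of 1 color. The authors deposited the output of Agilent Feature Extraction 10.7.1.1, as intensity values on a linear scale with background subtracted per spot by that software, and a table of normalized values, a score on the log2 scale centered per probe by the authors with GeneSpring. The genome builds behind the array design and the table of gene names differ, so array coordinates were not used.

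From the deposited intensities, log2 values were taken, the 75th percentile of each array over gene spots was subtracted (8.99 for Control and 7.82 for RFF4), spots of a probe were averaged, and control spots and spots with an outlier mark were dropped. A probe counts as well above background when 50% or more of its spots do. The array has 55679 gene probes, 29150 of them with a RefSeq accession, of which 27509 matched a symbol of GRCm38.p6. Each gene was read by the probe with the highest mean level. Where that was well above background on 1 array, the difference is a bound against the higher of the dim level and the lowest level well above background there, with no difference if the bound is under 1-fold. The members and lists were chosen with earlier results of these data known. The text may name members and genes of the lists, and each list was counted whole, though values of some list genes are not reported here. Lists are described by counts and medians, without tests. The lists that the report does not describe elsewhere are given under other observations.

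Promoter windows came from RefSeq, and identity is the share of matching bases in a global alignment of the first listed window of each gene. The alternatives were median scaling, quantile normalization, cyclic loess, spike-in controls or pan T cell genes set equal, normexp background correction (offset 50), the normalized table, the mean of all probes, genes measured on both arrays alone, neither filter nor bound, and outlier spots kept. The number of arrays, 1 per genotype, limits the precision. Calculations used Python 3.11.15 with numpy 2.4.6 and pandas 2.3.3 and R 4.3.3 with limma 3.58.1, with plots from matplotlib 3.10.9, and were tested on simulated data.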

Additional observations from a re-analysis of the deposited data

How the results depend on the processing

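The KLR counts past 2-fold were 8 lower and 5 higher, and the median was -0.44. With the spike-in controls set equal they were 16 lower and 2 higher with a median of -1.55, where 55.7% of all genes were past 2-fold lower and 1.46% higher and the median of all genes was -1.09. The median was -0.62 with median scaling, which moved each difference by -0.17, and -0.79 with pan T cell genes set equal. The count of KLR genes more than 2-fold lower was 5 with normexp background correction, beside 3.66% of all genes. It was also 5, beside 4.50% of all genes, when only genes measured on both arrays were counted, the latter because the 3 bounds were left out. The cause of the other changes was not tested. In the other alternatives the lower count was 7 or 8, the higher count 5 or 6, and the median -0.46 to -0.35, or -0.30 with neither filter nor bound. With pan T cell genes set equal the counts were 8 lower, beside 12.4% of all genes in that setting, and 4 higher, beside 7.31%. Of 24 genes, the sign turned for 3 with the spike-in controls set equal (Klrb1a, Klrb1-ps1 and Klrk1), for 1 with pan T cell genes set equal (Klrb1a), for 1 of 23 with normexp (Klrb1a) and for 1 with the mean of all probes (Klra7), all with differences under 2-fold. Signal over background limits Klrc1, Klrc3 and Klri2 to bounds. No paired analysis was possible because each genotype has 1 array, and for the same reason no replicate could be left out.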

Other observations

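Other receptors that T cells share with NK cells, outside the KLR family, lay mostly close to 0. Of 10 listed, 9 had a difference, 6 higher and 3 lower, with a median of 0.26 and 1 past 2-fold in each direction. Cd226 (DNAM-1, an activating receptor for nectin-like ligands) was at -0.28 on the Control array and 1.71 on the RFF4 array, 3.99-fold higher (2.0). Its partner receptors for the same ligands were within 2-fold, Tigit at 0.36 and Cd96 at 0.26. Lilrb4a, an inhibitory immunoglobulin-like receptor, was at 3.60 and 2.09, a 2.85-fold fall (-1.51). Cd244a at 0.01, Cd160 at -0.14, Crtam at 0.34, Lair1 at -0.10 and Cd7 at 0.48 were within 2-fold, and Ncr1 was well above background on neither array.

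Of 11 genes of transcription factors and cytokine receptors tied to the NK-like program of natural IELs, 10 had a difference, 7 higher and 3 lower with a median of 0.22, and 0 were past 2-fold. Tbx21, which encodes T-bet, was at 4.91 and 5.10 (0.20), and Il2rb, the shared receptor chain for IL-15, at 6.94 and 7.14 (0.20). Runx3 was at 2.01 and 1.78 (-0.23), Nfil3 at -0.06 and Id2 at -0.30. Tcf7, at 0.92 and 1.76, was the farthest from 0 of this list, at 0.84. Of 6 CD4 T cell markers, 5 had a difference with a median of 0.13, with Foxp3 at 1.20 and Ctla4 at -1.01. With the spike-in controls set equal, these list medians were -0.84 for the receptors, -0.89 for the transcription factors and cytokine receptors and -0.97 for the CD4 T cell markers. With pan T cell genes set equal they were -0.08, -0.13 and -0.21. The receptor median also turned with quantile normalization (-0.12) and cyclic loess (-0.03), and the CD4 T cell median with median scaling (-0.04), normexp (-0.05) and the mean of all probes (-0.09), so the directions of these medians depend on the setting.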
